A study of Mus musculus with 6 samples.

Results

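The collagen genes are described here, that is, the protein-coding genes whose symbol in GENCODE release M21 has the form Col, a number, a and a number. The files hold 44 of them among 39059 genes, of which 11 encode fibrillar collagens, 8 collagens of basement membranes and 25 other collagens. The RNA is that of satellite cells, which are muscle stem cells, isolated by cell sorting from hind-limb muscle of mice of the C57BL/6J strain aged 19 days after birth. Of the 6 libraries, 3 are Lmna Δ8-11 -/- (Lmna HOM), in which exons 8 to 11 of the gene for lamins A and C are deleted on both copies, and 3 are Lmna +/+ (Lmna WT), with both copies intact. The deletion is carried by the whole animal, so the RNA also reflects growth in a mutant body. The line with this allele has been found to make a truncated lamin A, so it may not lack every lamin A/C product. The labels state 3 mice per condition but do not say which library is which animal, so p-values measure only the spread among these libraries, part of which may be technical.

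Collagens are extracellular proteins of 3 chains wound into a triple helix. Fibrillar collagens form the cables of tendon and connective tissue, type IV collagens form the mesh of basement membranes, and the remaining members coat fibrils, form microfibrils or span the plasma membrane. In muscle, satellite cells lie between the fibre and its basement membrane, and collagens of types V and VI are known from mouse work to help keep them quiescent and able to renew themselves. Most fibrillar collagen of muscle comes from fibroblasts and related mesenchymal cells. In these bulk samples, fewer cells of a type and less RNA per cell cannot be told apart.

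Libraries held 6613636 to 9552751 reads assigned to genes. Lmna was at 436, 375 and 451 CPM (counts relative to a library total scaled by the TMM method) in HOM replicates 1, 2 and 3, against 842, 939 and 1057 CPM in WT replicates 1, 2 and 3. The count covers the whole gene and so checks the labels only in part. The satellite cell transcription factor Pax7 was present, at 23.1, 52.4 and 19.5 CPM in HOM and 86.9, 66.3 and 74.9 CPM in WT libraries. A list of 12 satellite cell markers summed to 1522 to 2506 CPM in HOM and 2913 to 2998 CPM in WT libraries. Markers of other cell types were present too. Pericyte and smooth muscle markers and Schwann cell and glial markers had higher sums, and the remaining lists had lower sums. A list of 12 pericyte and smooth muscle markers summed to 13344 to 14081 CPM in HOM and 12106 to 17113 CPM in WT libraries. For 10 Schwann cell and glial markers the sum was 4028 to 5227 CPM in HOM and 4751 to 5892 CPM in WT libraries. Sums of different gene lists do not measure shares of cells. HOM replicate 2 stood apart from the other HOM libraries. It had the highest value of the 3 HOM libraries for each of the 19 collagens called lower, for 1138 of the 1617 genes of all kinds called lower (70.4%), and for 36.6% of all genes tested. It was also the HOM library with reads from Y-linked genes (4498 reads, against 1 and 3 in HOM replicates 1 and 3, beside 0, 3074 and 4831 in WT replicates 1, 2 and 3), and HOM replicate 2 and WT replicate 2 were high in the transcript Gm42418. Results that turn on HOM replicate 2 are given with and without it.

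Less collagen RNA was found in HOM cells, and fibrillar collagens held most of the difference. All collagen reads together made up 0.614, 0.956 and 0.786% of gene reads in HOM replicates 1, 2 and 3, against 1.42, 1.22 and 1.21% in WT replicates 1, 2 and 3. Of the 44 genes, which all passed the filter on low counts, 19 were lower and 3 higher in HOM cells at an adjusted p under 0.05 (edgeR's quasi-likelihood test with Benjamini-Hochberg adjustment over 14099 genes). Of all genes tested, 11.5% were lower and 9.67% higher, 21.1% in all. The median log2 fold change, HOM minus WT, was -0.51 over the collagens and -0.0038 over all genes tested. Among the lower collagens 15 changed at least 2-fold, and none of the higher ones did. Of these 15, Col2a1, Col6a5 and Col22a1 passed the filter on low counts only through the WT libraries, where they were high. Such genes could only be called lower. None of the 3 higher calls held without HOM replicate 1, HOM replicate 3, WT replicate 1 or WT replicate 2, where edgeR called 0 collagens higher and 4, 3, 4 and 4 were higher at an unadjusted p under 0.05. Every HOM library lay below every WT library for 23 collagens, and every HOM library lay above every WT library for 4. The corresponding shares of all genes tested were 20.6% and 20.2%.

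**Figure D1:**
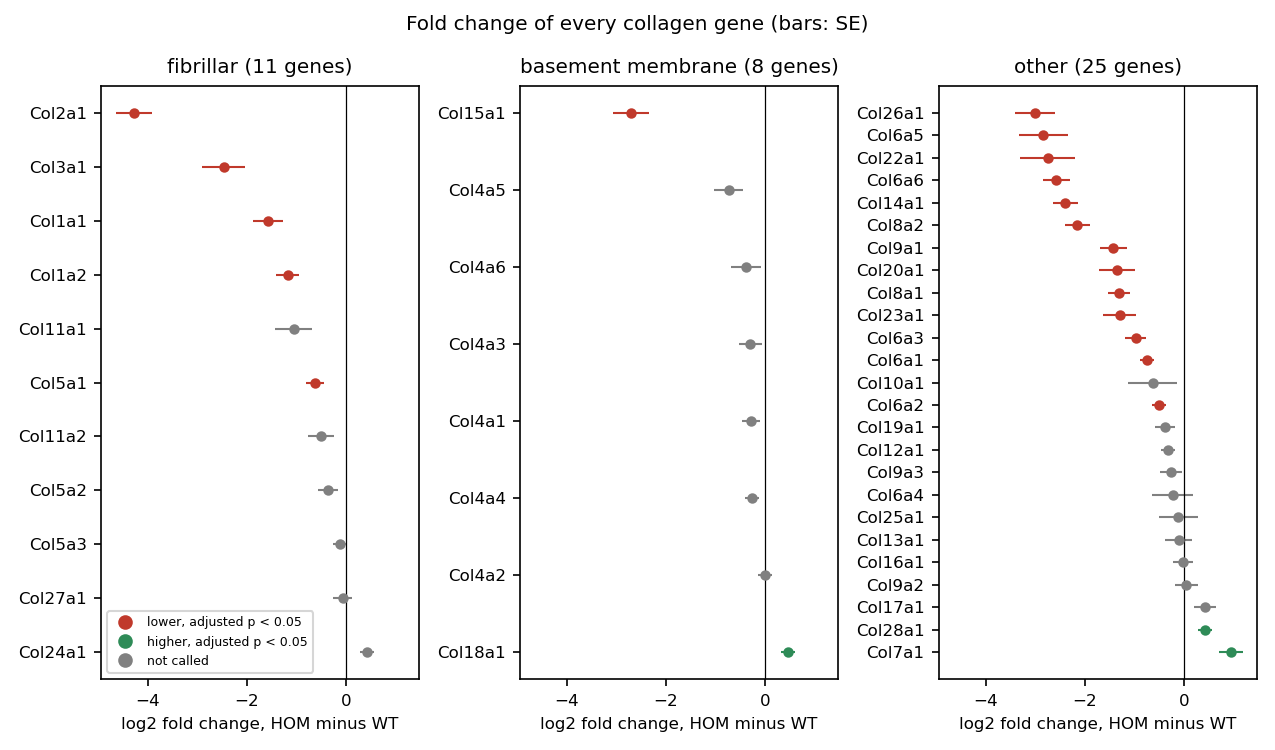
Log2 fold change (HOM minus WT, horizontal axis) of each of the 44 collagen genes with its standard error as a bar, in 3 panels for fibrillar, basement membrane and other collagens, with colour for the call at an adjusted p under 0.05. Calls of lower genes fill much of the fibrillar and other panels, from -4.28 for Col2a1 to -0.51 for Col6a2, while the 6 type IV genes in the middle panel run from -0.74 for Col4a5 to 0.00029 for Col4a2 with none called.

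By level per length, type IV collagen led in HOM cells. Col4a1 stood at 301 CPM per kilobase of merged exon length in HOM and 368 in WT libraries, on average. In HOM cells Col4a2 (194.5 CPM per kb), Col6a1 (74.4), Col18a1 (57.9) and Col3a1 (48.8) came next. In WT cells the next were Col3a1 (269.7 CPM per kb), Col4a2 (194.5), Col6a1 (125) and Col1a2 (94.8). Col3a1 thus ranked 5 of 44 in HOM and 2 of 44 in WT cells. When the longest coding transcript gave the length, a choice made after seeing the data, Col3a1 stood first in WT cells at 476 CPM per kb, ahead of Col4a1 at 415, and Col4a1 still led in HOM cells at 340.0, against 86.1 for Col3a1.

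**Figure D2:**
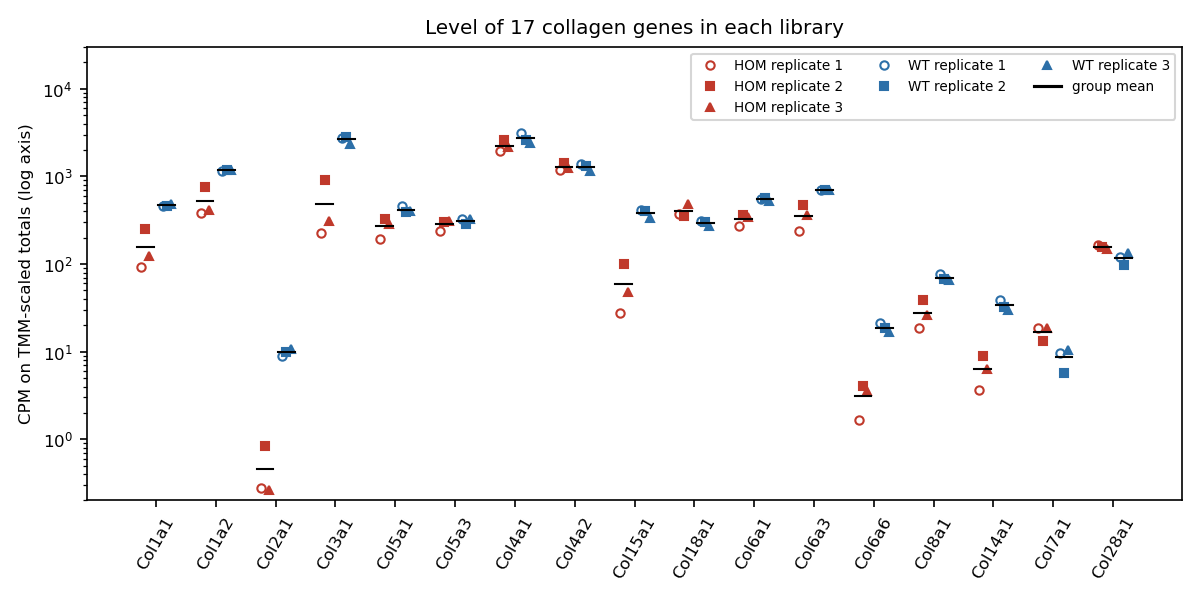
Level of 17 collagen genes (CPM on TMM-scaled totals, log axis) in each library, with HOM libraries left of WT libraries for each gene, 1 symbol per replicate and a line at the group mean. Col3a1, Col15a1 and Col2a1 show wide gaps between the genotypes, Col4a1, Col4a2 and Col5a3 show overlapping libraries, and the filled squares of HOM replicate 2 lie above the other HOM symbols for the lower genes.

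Fibrillar collagens fell in HOM cells for 5 of 11 members, with a median log2 fold change of -0.63, and 0 rose. Without HOM replicate 2 the count of lower members was 8. At an unadjusted p under 0.05, 6 were lower and 1 higher, and the DESeq2 Wald test called the same numbers as edgeR, 5 lower and 0 higher. Col3a1, the collagen of fine reticular fibres, was at 227, 902 and 308 CPM in HOM replicates 1, 2 and 3, against 2779, 2788 and 2374 CPM in WT replicates 1, 2 and 3. The groups were far apart, and HOM replicate 2 stood between the other HOM libraries and WT. Its log2 fold change was -2.47 (SE 0.43, adjusted p = 0.00458), and -3.31 without HOM replicate 2. The exons of Col3a1 share 141 bases with a small RNA gene on the same strand. Col1a1, the α1 chain of type I collagen, was at 93.3, 253 and 125 CPM in HOM against 464, 459 and 484 CPM in WT libraries (log2 fold change -1.58, SE 0.30, adjusted p = 0.00616). Col1a2, the α2 chain of the same protein, was at 379, 764 and 415 CPM in HOM against 1158, 1193 and 1184 CPM in WT libraries (log2 fold change -1.18, SE 0.24, adjusted p = 0.00821). For both chains of type I collagen the WT libraries lay close together and each HOM library lay below them. Col2a1, the main collagen of cartilage, was rare in both genotypes, at 0.280, 0.848 and 0.262 CPM in HOM and 8.91, 9.86 and 10.8 CPM in WT libraries, on 12 and 224 reads. It had the lowest log2 fold change of the 44 genes, -4.28 (SE 0.36, adjusted p = 0.000325), and -5.10 without HOM replicate 2. Col2a1 passed the filter on low counts only through the WT libraries, so it could only be called lower.

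Type V collagen, which sets the diameter of fibrils and in mouse satellite cells signals through the calcitonin receptor, changed in part. Col5a1, its α1 chain, was at 193, 329.7 and 284 CPM in HOM against 455, 391 and 402 CPM in WT libraries (log2 fold change -0.63, SE 0.18, adjusted p = 0.0363). The groups did not overlap, but the call was lost without HOM replicate 1 (adjusted p = 0.0953), HOM replicate 3 (0.0801), WT replicate 1 (0.118), WT replicate 2 (0.0701) or WT replicate 3 (0.0728), and with Y-linked reads as a covariate (0.0625). Col5a2, the α2 chain, was at 352, 589 and 394 CPM in HOM and 649.6, 514 and 559 CPM in WT libraries, which gave a log2 difference of -0.37 with an SE of 0.19 (adjusted p = 0.201). Col5a3, the α3 chain, was at 241, 305 and 306 CPM in HOM and 322, 288 and 322 CPM in WT libraries, which gave a log2 difference of -0.13 with an SE of 0.13 (adjusted p = 0.515). For Col5a2 and Col5a3 the groups overlapped, and neither passed the test. Col5a2 passed it without HOM replicate 2 (log2 fold change -0.62, adjusted p = 0.0109).

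The remaining fibrillar genes did not pass. Col11a1 and Col11a2, chains of a minor cartilage collagen that copolymerises with type II, averaged 15.9 ± 11.6 and 22.0 ± 10.3 CPM in HOM and 33.8 ± 3.43 and 31.5 ± 3.10 CPM in WT libraries (SD, n = 3). Their log2 fold changes were -1.06 (adjusted p = 0.0705) and -0.51 (adjusted p = 0.196). Both passed without HOM replicate 2, at -1.86 and -0.98, and with no filter on low counts (adjusted p = 1.56e-08 and 0.0156). Col11a1 also passed with Y-linked reads as a covariate (adjusted p = 0.0432). Neither passed with DESeq2 (adjusted p = 0.194 and 0.185). HOM replicate 2 held 29.3 CPM of Col11a1 where HOM replicates 1 and 3 held 7.97 and 10.6 CPM. Col24a1, a fibrillar collagen known from bone and cornea, was the single fibrillar gene with each HOM library above each WT library, at 46.2, 51.5 and 51.6 CPM in HOM and 33.9, 33.1 and 44.3 CPM in WT libraries. It missed the threshold at 0.42 on the log2 scale (SE 0.14, adjusted p = 0.0552) and passed without WT replicate 3. Col27a1, a fibrillar collagen of cartilage, averaged 51.1 ± 13.9 CPM in HOM and 53.7 ± 7.66 CPM in WT libraries (SD, n = 3), with a log2 fold change of -0.072.

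Among marker lists of cell types that make fibrillar collagen, most called markers of fibro-adipogenic progenitors and tendon cells were lower, and cartilage markers were mixed. For each list count here, the shares of all genes tested were 11.5% lower and 9.67% higher. Of 12 markers of fibro-adipogenic progenitors, the connective tissue fibroblasts of muscle, 9 were lower and 1, Pdgfra, was higher, with a summed level of 1160 to 1435 CPM in HOM and 1837 to 2008 CPM in WT libraries. Of 7 tendon cell markers 3 were lower and 0 higher, also at an unadjusted p under 0.05, and the DESeq2 Wald test called 1 lower and 0 higher. Their summed level was 70.8 to 195 CPM in HOM and 190 to 217 CPM in WT libraries, with the highest HOM value in HOM replicate 2. Of 6 cartilage markers, 3 could be tested, of which 1 was lower and 1 higher, Matn1 had no reads in any library, and the summed level was higher in each HOM library, at 37.5 to 56.2 CPM in HOM and 28.2 to 35.2 CPM in WT libraries. Within that sum Acan averaged 31.2 CPM in HOM and 12.0 CPM in WT libraries, Sox9 16.8 and 16.7 CPM, and Hapln1 0.185 and 3.1 CPM. Satellite cell markers were lower for 8 of 12, at 1522 to 2506 CPM in HOM and 2913 to 2998 CPM in WT libraries. The part of these cell types in the collagen results was not tested.

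Among basement membrane collagens 1 of 8 fell and 1 rose, beside 11.5% lower and 9.67% higher among all genes tested. The median log2 fold change of this class was -0.29. Without HOM replicate 2, 3 fell. None of the 6 type IV genes was called with edgeR or with the DESeq2 Wald test, and 1 was lower and 0 higher at an unadjusted p under 0.05. Col4a1 and Col4a2, the chains of the type IV network found in nearly every basement membrane, were the 2 genes of this class with the most reads. Col4a1 was at 1947, 2636 and 2164 CPM in HOM and 3168, 2633 and 2435 CPM in WT libraries (log2 fold change -0.29, SE 0.17, adjusted p = 0.261). Col4a2 was at 1183, 1441 and 1239 CPM in HOM and 1400.3, 1307 and 1155 CPM in WT libraries (log2 fold change 0.00029, SE 0.15, adjusted p = 0.999). For both genes the HOM and WT libraries overlapped. Col4a5, a chain of more specialised basement membranes that muscle also uses, was at 82.0, 217 and 119.5 CPM in HOM and 277, 199 and 223 CPM in WT libraries. Its log2 fold change was -0.74 (SE 0.29, adjusted p = 0.0966), and -1.21 (adjusted p = 0.000685) without HOM replicate 2. Col4a6 behaved alike in that fit, at -0.38 (adjusted p = 0.389) with every library and -0.83 (adjusted p = 0.0192) without HOM replicate 2. Col4a3 and Col4a4, known from the kidney filter, averaged 11.4 ± 1.72 and 20.2 ± 1.75 CPM in HOM and 14.0 ± 4.10 and 24.3 ± 2.46 CPM in WT libraries (SD, n = 3) and did not pass. Part of the exons of Col4a3 lies opposite another transcript, which covers 5.65% of their length.

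The multiplexins, a pair of basement membrane collagens with interrupted helices, were called in opposite directions. Col15a1, whose loss in mice gives a mild muscle disease, was at 27.4, 99.5 and 48.3 CPM in HOM against 413, 400.1 and 336 CPM in WT libraries. Each HOM library lay far below each WT library (log2 fold change -2.70, SE 0.37, adjusted p = 0.00153). Leaving out HOM replicate 2 gave -3.34. Col18a1, the source of the fragment endostatin, was at 376, 356 and 488 CPM in HOM against 307, 306 and 274 CPM in WT libraries (log2 fold change 0.46, SE 0.15, adjusted p = 0.0485). The groups did not overlap, yet the call was lost without HOM replicate 1 (adjusted p = 0.0745), HOM replicate 3 (0.185), WT replicate 1 (0.113), WT replicate 2 (0.0910) or WT replicate 3 (0.131), with library totals alone (0.0527) and with Y-linked reads as a covariate (0.124). Reads of Col15a1 per read of Col18a1 came to 0.0730, 0.280 and 0.0989 in HOM replicates 1, 2 and 3 and to 1.35, 1.31 and 1.22 in WT replicates 1, 2 and 3. Of the 12 pericyte and smooth muscle markers, 3 were higher and 1 lower, beside 9.67% higher and 11.5% lower among all genes tested. The 10 endothelial markers summed to 474 to 810 CPM in HOM and 537 to 823 CPM in WT libraries, with 0 called by edgeR or DESeq2 and, at an unadjusted p under 0.05, 0 lower and 1 higher. The part of these cells in the multiplexin results was not tested.

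Type VI collagen, which forms beaded microfibrils around muscle fibres and whose human genes are mutated in Ullrich and Bethlem myopathies, fell for 5 of 6 genes, with a median log2 fold change of -0.86. At an unadjusted p under 0.05 the numbers were 5 lower and 0 higher, and the DESeq2 Wald test gave the same counts. The 3 common chains fell moderately. Col6a1 was at 273, 363 and 341 CPM in HOM against 552, 569 and 527 CPM in WT libraries (log2 fold change -0.75, SE 0.14, adjusted p = 0.00554). Col6a3 was at 236, 469.6 and 361 CPM in HOM against 703, 693 and 704 CPM in WT libraries (log2 fold change -0.98, SE 0.21, adjusted p = 0.0111). The groups were apart for both, and the WT libraries agreed closely with each other. Col6a2 was at 104, 140.2 and 129 CPM in HOM against 184, 196 and 151 CPM in WT libraries (log2 fold change -0.51, SE 0.15, adjusted p = 0.0333), a call lost without HOM replicate 1 (adjusted p = 0.122), HOM replicate 3 (0.0827), WT replicate 1 (0.106) or WT replicate 2 (0.105), and with Y-linked reads as a covariate (0.0687). Col6a5 and Col6a6, rarer chains that resemble the α3 chain, fell further. Col6a5 was at 0.839, 5.30 and 0.916 CPM in HOM against 20.3, 17.8 and 15.9 CPM in WT libraries (log2 fold change -2.84, SE 0.49, adjusted p = 0.00432), and stood at -4.33 without HOM replicate 2. Col6a6 was at 1.68, 4.03 and 3.53 CPM in HOM against 21.1, 18.8 and 16.6 CPM in WT libraries (log2 fold change -2.58, SE 0.27, adjusted p = 0.000615). Col6a4, the third chain of this kind, was near the detection limit with 55 reads in HOM and 62 in WT libraries, and its groups overlapped.

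Of the 9 FACIT genes, whose proteins attach to the surface of fibrils, 4 fell and 0 rose, or 5 and 0 at an unadjusted p under 0.05 and 3 and 0 with DESeq2. Col14a1, which is abundant in tendon sheaths and fascia, was at 3.64, 8.80 and 6.41 CPM in HOM against 38.4, 32.6 and 30.2 CPM in WT libraries (log2 fold change -2.40, SE 0.25, adjusted p = 0.000641). Col22a1, a collagen of the myotendinous junction, was at 0.280, 4.45 and 0.785 CPM in HOM against 13.1, 14.1 and 13.0 CPM in WT libraries (log2 fold change -2.75, SE 0.56, adjusted p = 0.00828). Most of its 50 HOM reads came from HOM replicate 2, and leaving that library out gave -4.59 on the log2 scale. Col9a1, a cartilage FACIT, was at 2.10, 2.86 and 1.96 CPM in HOM against 5.09, 6.68 and 7.24 CPM in WT libraries (log2 fold change -1.43, SE 0.27, adjusted p = 0.00598), while its partner chains Col9a2 and Col9a3 did not pass, at 0.042 and -0.26. Col20a1 was at 13.3, 53.9 and 28.7 CPM in HOM against 83.1, 70.3 and 92.8 CPM in WT libraries (log2 fold change -1.35, SE 0.36, adjusted p = 0.0264). It missed the threshold with DESeq2 (adjusted p = 0.0739) and without HOM replicate 3 (0.0820), WT replicate 1 (0.0724), WT replicate 2 (0.0561) or WT replicate 3 (0.0787), and stood at -1.96 without HOM replicate 2. Col12a1, the partner of Col14a1 on fibrils of tendon and fascia, stood at -0.32 on the log2 scale (SE 0.14, adjusted p = 0.113), with 93.0 to 107 CPM in HOM and 109.5 to 150.1 CPM in WT libraries. Col16a1 and Col19a1 did not pass, at -0.026 and -0.38, and Col19a1 passed without HOM replicate 2, at -0.62 (adjusted p = 0.0234).

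Short-chain and transmembrane collagens were mostly rare. Col8a1 and Col8a2, which form hexagonal networks in vessel walls and the cornea, both fell. Col8a1 was at 18.5, 38.7 and 26.2 CPM in HOM against 76.6, 67.1 and 64.9 CPM in WT libraries (log2 fold change -1.31, SE 0.22, adjusted p = 0.00383). Col8a2 was at 1.68, 2.54 and 2.09 CPM in HOM against 7.87, 9.86 and 10.9 CPM in WT libraries (log2 fold change -2.15, SE 0.25, adjusted p = 0.000897). Neither gene's groups overlapped. Col10a1, a marker of hypertrophic cartilage, had 29 reads in HOM and 41 in WT libraries and did not pass. Of the 4 transmembrane members, Col23a1 fell, at 4.76, 12.2 and 4.58 CPM in HOM against 15.9, 17.3 and 20.95 CPM in WT libraries (log2 fold change -1.30, SE 0.33, adjusted p = 0.0217). Leave-one-out fits gave an adjusted p of 0.0734 without HOM replicate 1, 0.0678 without HOM replicate 3, 0.0570 without WT replicate 2 and 0.0721 without WT replicate 3, and its log2 fold change was -1.95 without HOM replicate 2. Col13a1, which acts at the neuromuscular junction, and Col25a1, which motor axons need to enter muscle, had 56 and 45 reads in HOM and 57 and 45 reads in WT libraries. Col17a1, a hemidesmosome protein, was at 8.39 to 10.7 CPM in HOM and 5.72 to 8.45 CPM in WT libraries (log2 fold change 0.41, adjusted p = 0.202).

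Besides Col18a1, the higher collagens were Col7a1 and Col28a1. Col7a1, the anchoring fibril collagen of skin, was at 18.6, 13.1 and 18.5 CPM in HOM against 9.72, 5.72 and 10.4 CPM in WT libraries (log2 fold change 0.94, SE 0.24, adjusted p = 0.0216). Its call was lost without HOM replicate 1 (adjusted p = 0.0719), HOM replicate 3 (0.07), WT replicate 1 (0.0518) or WT replicate 2 (0.0544). Col28a1, a collagen of the basement membrane around Schwann cells, was at 164, 158 and 149.6 CPM in HOM against 121, 97.3 and 134 CPM in WT libraries (log2 fold change 0.42, SE 0.13, adjusted p = 0.0478). Without HOM replicate 1, 2 or 3 its adjusted p was 0.127, 0.0532 and 0.0889, and it was 0.117 without WT replicate 1, 0.123 without WT replicate 2, 0.0514 with library totals alone and 0.0993 with Y-linked reads as a covariate. Of the 10 Schwann cell and glial markers 3 were higher and 3 lower, beside 9.67% higher and 11.5% lower among all genes tested. The part of these cells in the Col28a1 result was not tested. Col26a1, a small collagen known from reproductive tissue, fell, at 2.66, 9.22 and 4.06 CPM in HOM against 46.3, 59.9 and 26.7 CPM in WT libraries (log2 fold change -3.01, SE 0.40, adjusted p = 0.00141). The difference was -3.70 without HOM replicate 2.

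The makeup of the collagen RNA differed between the genotypes as well as its level. Fibrillar collagens summed to 1590, 3314 and 1973 CPM in HOM replicates 1, 2 and 3 and to 5997, 5782 and 5507 CPM in WT replicates 1, 2 and 3, so the HOM mean was 39.8% of the WT mean. Basement membrane collagens summed to 3660, 4817 and 4109 CPM in HOM and 5636, 4907 and 4493 CPM in WT libraries, a HOM mean of 83.7% of the WT mean, with overlapping groups. The other collagens stood at 61.5% of WT by the same measure. Basement membrane collagens took 57.9, 49.8 and 55.2% of collagen reads in HOM and 40.8, 38.3 and 37.0% in WT libraries. Fibrillar collagens took 25.2, 34.2 and 26.5% in HOM and 43.4, 45.1 and 45.3% in WT libraries. The share of the other collagens was 16.0 to 18.3% in HOM and 15.9 to 17.7% in WT libraries.

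**Figure D3:**
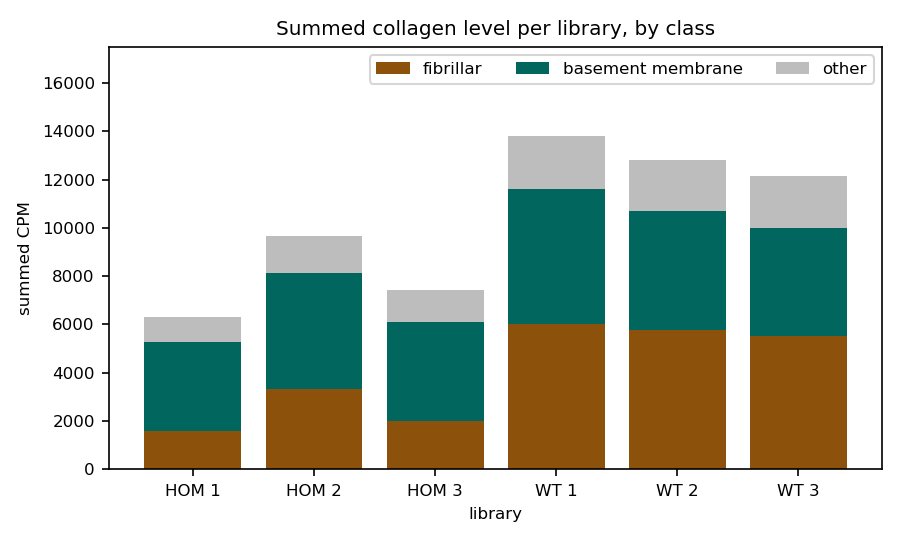
Summed CPM of fibrillar, basement membrane and other collagens (vertical axis, stacked) in each of the 6 libraries (horizontal axis, HOM at left). The fibrillar block reaches 1590 to 3314 CPM in HOM and 5507 to 5997 CPM in WT libraries, while the basement membrane block spans 3660 to 4817 CPM in HOM and 4493 to 5636 CPM in WT libraries.

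Of 6 pairs of chains that join in 1 protein, 3 had read ratios that did not overlap between the genotypes and 3 had ratios that did. For levels of single genes, the groups did not overlap for 40.7% of all genes tested. No such share was taken over ratios of other gene pairs, so the count does not set these pairs apart. Reads of Col1a1 per read of Col1a2 were 0.246, 0.332 and 0.301 in HOM and 0.401, 0.385 and 0.409 in WT libraries. Reads of Col4a1 per read of Col4a2 were 1.65, 1.83 and 1.75 in HOM and 2.26, 2.01 and 2.11 in WT libraries. In both of these pairs each HOM library lay below each WT library. Reads of Col3a1 per read of Col1a2, which join in mixed fibrils, were 0.598, 1.18 and 0.743 in HOM and 2.40, 2.34 and 2.0 in WT libraries, again without overlap. Col6a1 per Col6a2 was 2.59 to 2.65 in HOM and 2.91 to 3.48 in WT libraries. The ratios overlapped for Col5a1 per Col5a2 (0.548 to 0.721 in HOM and 0.701 to 0.760 in WT libraries), Col4a5 per Col4a6 (5.47 to 7.23 in HOM and 6.66 to 8.65 in WT libraries) and Col4a3 per Col4a4 (0.518 to 0.596 in HOM and 0.481 to 0.718 in WT libraries). These ratios were described and not tested.

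**Figure D4:**
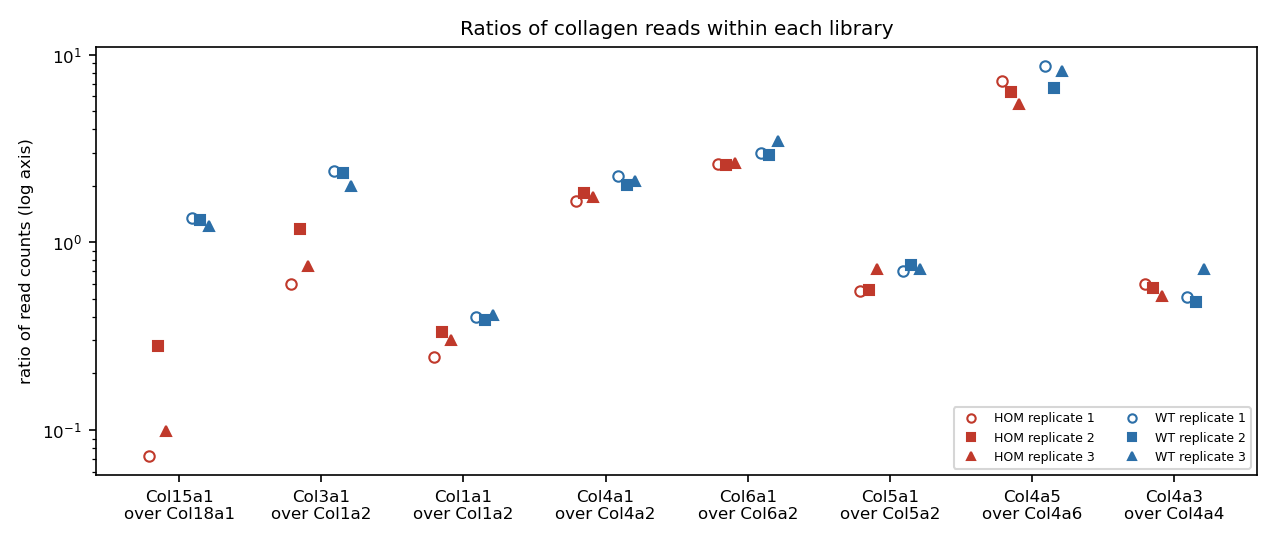
Ratios of read counts between pairs of collagen genes within each library (log axis), with HOM libraries left of WT libraries for each pair and 1 symbol per replicate. The ratio of Col15a1 to Col18a1 shows the widest gap, 0.0730 to 0.280 in HOM against 1.22 to 1.35 in WT libraries, and the pairs Col5a1 with Col5a2, Col4a5 with Col4a6 and Col4a3 with Col4a4 show overlapping genotypes.

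Several collagen genes are neighbours in the genome, and neighbours did not always change alike. On chromosome 1 (build GRCm38, the assembly also called mm10), Col3a1 (chr1:45311538-45349706, plus strand) ends 24614 bases before the end of Col5a2 (chr1:45374321-45503282, minus strand), and their log2 fold changes were -2.47 and -0.37. On chromosome 9, Col6a6, Col6a5 and Col6a4 lie in a row on the minus strand with gaps of 27917 and 28810 bases, and their log2 fold changes were -2.58, -2.84 and -0.23. Col4a1 (chr8:11198423-11312826, minus strand) and Col4a2 (chr8:11312805-11449287, plus strand) start head to head with annotated exons that overlap by 22 bases, and had values of -0.29 and 0.00029. Col4a4 and Col4a3, which start 71 bases apart, had -0.27 and -0.30, and Col4a6 and Col4a5 on chromosome X, 1308 bases apart, had -0.38 and -0.74. Col9a1 and Col19a1 on chromosome 1, whose ends lie 9205 bases apart, had -1.43 and -0.38. The genes of each head-to-head type IV pair, none of them called, thus differed from each other by less than Col3a1 did from Col5a2. The same held for 2 pairs that lie on the same strand, Col6a6 with Col6a5 and, on chromosome 10, Col6a2 with Col6a1 (-0.51 and -0.75). No test was made of these differences between neighbours.

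The sequences before the start sites of 5 collagens are given to set lowered genes beside raised ones. They are the 250 bases upstream of the RefSeq start (build GRCm38.p6), 5′ to 3′ on the gene's own strand, and lie outside annotated exons. Col3a1 (chr1:45311288-45311537, plus strand), Col15a1 (chr4:47207762-47208011, plus strand) and Col8a1 (chr16:57754738-57754987, minus strand) fell, and Col7a1 (chr9:108953336-108953585, plus strand) and Col28a1 (chr6:8192618-8192867, minus strand) rose. Capitals mark the letters of 5 motifs on either strand. TATAAA is the core promoter motif bound by the TATA-binding protein. CCAAT is the motif of nuclear factor Y. GGGCGG is the GC box bound by Sp factors. TGGGAA is the core bound by the Notch effector RBPJ. CATTCC is the core bound by TEAD factors. The TGGGAA and CATTCC motifs can overlap each other on opposite strands.
Col3a1: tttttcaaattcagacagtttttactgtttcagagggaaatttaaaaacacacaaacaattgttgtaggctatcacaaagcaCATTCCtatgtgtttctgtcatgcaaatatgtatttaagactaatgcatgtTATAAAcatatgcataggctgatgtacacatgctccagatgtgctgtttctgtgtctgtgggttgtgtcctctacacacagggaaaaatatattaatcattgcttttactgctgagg
Col15a1: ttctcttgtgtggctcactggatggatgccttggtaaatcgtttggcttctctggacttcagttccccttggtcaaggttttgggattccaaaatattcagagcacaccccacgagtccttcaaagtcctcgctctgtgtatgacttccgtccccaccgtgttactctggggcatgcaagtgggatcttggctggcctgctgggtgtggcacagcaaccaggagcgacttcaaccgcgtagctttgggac
Col8a1: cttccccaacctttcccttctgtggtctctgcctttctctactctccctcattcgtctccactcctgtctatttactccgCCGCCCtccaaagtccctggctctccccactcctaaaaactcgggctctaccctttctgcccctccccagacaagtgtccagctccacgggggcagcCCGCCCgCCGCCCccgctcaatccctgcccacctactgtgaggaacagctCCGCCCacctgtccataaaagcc
Col7a1: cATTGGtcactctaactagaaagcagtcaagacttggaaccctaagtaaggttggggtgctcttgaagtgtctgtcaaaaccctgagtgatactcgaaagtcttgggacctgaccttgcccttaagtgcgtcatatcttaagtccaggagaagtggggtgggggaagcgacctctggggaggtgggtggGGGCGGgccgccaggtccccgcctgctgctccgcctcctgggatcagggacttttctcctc
Col28a1: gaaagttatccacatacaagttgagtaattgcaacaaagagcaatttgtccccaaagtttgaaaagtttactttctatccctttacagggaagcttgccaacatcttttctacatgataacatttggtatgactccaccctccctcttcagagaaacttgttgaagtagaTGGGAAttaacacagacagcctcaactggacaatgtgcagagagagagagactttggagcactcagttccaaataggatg
The GC box letters occurred 4 times before Col8a1 and once before Col7a1, and none of the 5 motifs was found before Col15a1. The RefSeq table held 38 such windows for 35 of the 44 collagens, and the genes without one were Col12a1, Col14a1, Col1a1, Col22a1, Col26a1, Col2a1, Col4a3, Col5a2 and Col9a3. GC box letters were in 22 of the 38 collagen windows (57.9%) and in 32.7% of all 32851 windows of this length. CCAAT letters were in 13 collagen windows (34.2%, against 33.8% of all windows), TATAAA in 5 (13.2%, against 12.4%), TGGGAA in 12 (31.6%, against 21.6%) and CATTCC in 4 (10.5%, against 12.6%). In the 16 windows of collagens called lower, GC box letters were in 9 and CCAAT letters in 2, and in the other 22 windows they were in 13 and 11. TATAAA was in 1 of the 16 and 4 of the 22 windows, TGGGAA in 3 and 9, and CATTCC in 3 and 1. These matches describe letters in a short window.

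Genes that make, export and bind collagen were lower more often than higher as well. Of 48 tested genes on 4 lists, 19 were lower and 3 higher, with a median log2 fold change of -0.32. For these and the list counts below, the shares of all genes tested were 11.5% lower and 9.67% higher. The count of lower genes was 11 without HOM replicate 1 and 11 without HOM replicate 3, and that of higher genes was 1 without HOM replicate 1 and 1 without WT replicate 2. In the hydroxylation and folding list 8 of 19 fell and 0 rose, or 12 and 0 at an unadjusted p under 0.05 and 9 and 0 with DESeq2. Serpinh1, which encodes HSP47, the chaperone dedicated to collagen, was at 193, 353 and 263 CPM in HOM against 959, 999.9 and 718 CPM in WT libraries (log2 fold change -1.73, SE 0.22, adjusted p = 0.00118). Each HOM library held less than the lowest WT library. P4ha1, a catalytic subunit of prolyl 4-hydroxylase, fell by 0.73 on the log2 scale (SE 0.11), Fkbp14, a proline isomerase of the endoplasmic reticulum, stood at -1.46 (SE 0.21), and Ppib, or cyclophilin B, at -0.57 (SE 0.13). The adjusted p of Ppib was 0.0568 without HOM replicate 1. Among other hydroxylases of the list, Plod2 (-0.59 on the log2 scale, adjusted p = 0.0228) and P3h3 (-0.63, adjusted p = 0.0182) fell, and P4ha2, Plod1 and Plod3 did not pass, at 0.10, 0.053 and 0.069.

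Of 15 genes of export and processing 6 fell and 1, Mia3, rose. Bmp1, the protease that trims the C-terminal propeptide of fibrillar collagens, was at 62.7, 107 and 78.8 CPM in HOM against 183, 168 and 156 CPM in WT libraries (log2 fold change -1.02, SE 0.18, adjusted p = 0.00423). Pcolce, which enhances that protease, stood at -0.99 on the log2 scale (SE 0.16), Tll1, a relative of Bmp1, at -1.17 (SE 0.23), and Adamts3, which trims the N-terminal propeptide, at -1.68 (SE 0.39). Adamts3 missed the threshold without HOM replicate 3 or WT replicate 3, and it passed the filter on low counts only through the WT libraries. Of 5 cross-linking enzymes 1 fell, 1 rose and 3, Loxl1, Loxl3 and Loxl4, did not pass (adjusted p of 0.381 to 0.621). Lox, lysyl oxidase, was at 263, 229 and 191 CPM in HOM against 122, 131 and 133 CPM in WT libraries (log2 fold change 0.82, SE 0.14, adjusted p = 0.00354). Loxl2, a relative, was at 45.9, 61.0 and 42.9 CPM in HOM against 88.3, 82.7 and 82.0 CPM in WT libraries (log2 fold change -0.75, SE 0.14, adjusted p = 0.00574). For each of this pair the groups did not overlap, and both calls held in each of the 14 alternative fits.

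Of 9 tested collagen receptors 4 fell and 1 rose, or 4 and 1 at an unadjusted p under 0.05 and 3 and 0 with DESeq2. Ddr2, a receptor tyrosine kinase for fibrillar collagen, was at 70.8, 87.7 and 75.7 CPM in HOM against 147, 153 and 142 CPM in WT libraries (log2 fold change -0.92, SE 0.12, adjusted p = 0.00115). Mrc2, which takes up collagen for degradation, stood at -1.68 on the log2 scale (SE 0.25), and Itga2, the α2 chain of a collagen-binding integrin, at -1.82 (SE 0.39) and at -2.47 without HOM replicate 2. The groups were apart for these 3 genes, of which Itga2 passed the filter on low counts only through the WT libraries. Itga10, the α10 integrin chain, rose at 0.70 (SE 0.20, adjusted p = 0.0344), a call lost with DESeq2, with Y-linked reads as a covariate, without HOM replicate 2 and WT replicate 2 together, and without HOM replicate 1, HOM replicate 2, HOM replicate 3, WT replicate 2 or WT replicate 3 (adjusted p of 0.0538 to 0.0999). Itgb1, their common β1 chain, averaged 1259 ± 71.2 CPM in HOM and 1361 ± 74.7 CPM in WT libraries (SD, n = 3) and did not pass (log2 fold change -0.11, adjusted p = 0.575). The calcitonin receptor gene Calcr, also on the satellite cell marker list, was the remaining receptor that fell. Its level was 60.1, 131 and 39.4 CPM in HOM against 184, 146 and 164 CPM in WT libraries (log2 fold change -1.09, SE 0.34, adjusted p = 0.0455). Calcr was not called with DESeq2, and HOM replicate 2 lay close to the lowest WT library.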

How the data were processed

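RNA-seq read counts per gene were deposited by the authors for 3 Lmna HOM and 3 Lmna WT libraries. Per the submitters' processing notes, Trimmomatic 0.32, STAR 2.5.2b and HTSeq 0.6.1 were used with build mm10. Neither the strand setting nor the annotation release of the counting is stated in the labels, and reads in exons shared with an opposite transcript cannot be assigned to a strand. Summary lines (no feature, not unique, ambiguous) held 45.0 to 49.8% of the deposited counts and stayed out of totals and tests. Gene names and positions came from GENCODE M21, which held 38861 of the 39059 gene IDs.

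Counts were tested with edgeR 4.0.16 in R 4.3.3 (quasi-likelihood test, TMM scaling, low-count filter filterByExpr with a minimum of 10 reads, Benjamini-Hochberg adjustment over 14099 genes, threshold 0.05). SE is the size of the log2 fold change over the square root of F. Alternatives were DESeq2 1.42.0, other scalings and filters, a replicate block, a covariate for Y-linked reads, and leaving out libraries. The pipeline was tested on simulated data for this comparison (13928 genes): 63.3% of the 2-fold and 93.8% of the 4-fold changes were called, and 6.17% of calls were false. Replicates differed by more than counting noise. Counts carry no molecular identifiers, so low read numbers are not counts of independent molecules. The members and gene lists were chosen with earlier results of these data known. Of the other pathway genes, values are given for up to 4 called members of each list with the smallest p, and others named beside them were chosen after their values were seen.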

Additional observations from a re-analysis of the deposited data

How the results depend on the processing

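Of the 22 collagen calls, 15, all lower, held in each of 14 alternative fits. Over 615 values of the 44 genes, 535 kept direction and side of the threshold, 41 lost and 19 gained the call, and 20 changed sign, with the cause not tested. With the replicate number as a block 20 collagens were lower and 1 higher, against 19 and 3 without it, and the calls of Col18a1 (adjusted p = 0.0952), Col28a1 (0.0736) and the receptor Itga10 (0.0528) were lost and Col11a1 (-1.27, adjusted p = 0.0229) was gained. Same-numbered HOM and WT libraries did not deviate together over the genes tested (correlations -0.0359, 0.0224 and -0.0962). Both libraries numbered 2 were high in Gm42418, though, so these correlations cannot decide whether equal numbers mark a pairing. Higher collagens numbered 1 with library totals alone and 1 with Y-linked reads as a covariate, where 1932 genes of all kinds were called and 793 were higher. Lower basement membrane collagens numbered 2 with no filter. Without HOM replicate 2 and WT replicate 2, both high in the transcript Gm42418, they numbered 3, and lower fibrillar collagens 8.

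Leaving out 1 library at a time gave 1576 to 4002 genes of all kinds called, 881 to 2238 lower and 655 to 1764 higher. The ranges were 15 to 25 for lower collagens, 0 to 3 for higher collagens, 4 to 8 for lower fibrillar, 1 to 3 for lower basement membrane and 10 to 14 for other lower collagens. Pathway genes ranged over 11 to 23 lower and 1 to 3 higher. In the edgeR fits with 0 higher collagens, without HOM replicate 1, HOM replicate 3, WT replicate 1 or WT replicate 2, 4, 3, 4 and 4 were higher at an unadjusted p under 0.05.

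The genes that changed sign had not been called. Col4a2 stood at -0.0034 with DESeq2, -0.0094 with no filter, -0.0002 with a filter of 1 CPM, -0.00025 with the replicate block and -0.08 without the libraries high in Gm42418. Col16a1 stood at 0.0014 with library totals alone. Col9a2 stood at -0.0035 with the Y-linked covariate and -0.16 without the libraries high in Gm42418. Leaving out 1 library at a time, log2 fold changes ran from -0.089 to 0.064 for Col4a2, -0.21 to 0.18 for Col16a1, -0.14 to 0.22 for Col9a2, -0.23 to 0.14 for Col27a1, -0.41 to 0.20 for Col25a1 and -0.59 to 0.086 for Col6a4. Genes of under 100 reads a group carry little depth.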

Other observations

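Across the 44 collagen genes, the log2 fold change showed little relation to size. Spearman's rho was -0.0692 with merged exon length and 0.055 with the span of the gene, as a description across genes that share the same 6 libraries.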
